A study of Monodelphis domestica with 6 samples.

Results

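The transcripts of 10 transcription factors of the AP-1 and immediate-early class were followed through reprogramming of opossum skin fibroblasts into induced pluripotent stem cells. The genes were FOS, FOSB, FOSL1, FOSL2, JUN, JUNB, JUND, ATF3, BATF3 and EGR1. They were chosen by gene symbol with earlier results of these data known. All 10 symbols had a row among the 35665 genes of the deposited files. The cells were neonatal skin fibroblasts (neoSFs), grown from female pups of 2 inbred strains of Monodelphis domestica, FD2M1 and LSD1, and the iPSCs reprogrammed from them (monoiPSCs). Here LSD1 is the name of a strain and not of the demethylase. Each strain gave 1 neoSF library (2 in all) and 1 monoiPSC line, and each line was sequenced at passages 15 and 25, giving 4 monoiPSC libraries. All cells were wild type. The neoSFs were untreated and cultured in a fibroblast medium with fetal bovine serum. The monoiPSCs had been nucleofected with non-integrating OriP/EBNA plasmids carrying human OCT4, SOX2, NANOG, KLF4, LIN28 and cMYC, with a plasmid for a dominant-negative mouse p53 besides, and were kept without feeder cells in a defined medium for which no serum is listed, with human LIF, bFGF and the ROCK inhibitor Y27632. Each strain is represented by 1 line, and the 2 passages of a line are not separate reprogramming events, so the p-values measure the spread between these libraries. The neoSFs were sequenced in-house as short single-end reads and the monoiPSCs by a commercial service as longer paired-end reads. Cell type, medium and sequencing run therefore separate the libraries in the same way and cannot be told apart.

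AP-1 is a dimer of basic leucine zipper proteins. FOS proteins cannot pair with each other and need a JUN partner, while JUN proteins form dimers among themselves, with FOS proteins and with relatives such as ATF3 and BATF3. Immediate-early genes are transcribed within minutes of a stimulus such as serum, growth factors or wounding, through MAP kinases, SRF with its TCF partners, and CREB, and without new protein synthesis. EGR1 is a zinc finger protein and not a subunit of AP-1, but it is induced by the same signals. In fibroblasts, AP-1 is known for driving matrix, protease and proliferation genes and for holding enhancers open, and its loss from fibroblast enhancers is a known step of reprogramming in mouse cells.

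Levels are given as normalized read counts (NRC), the deposited log2 values raised back to the linear scale. They are compared between libraries for a gene and not between genes, because transcript lengths were not used here. The neoSF libraries held 14278794 and 16982978 counts and the monoiPSC libraries 28684754 to 35564261. A floor of 3 counts corresponds to an NRC of 4.75 to 5.85 in the neoSFs and of 1.55 to 1.88 in the monoiPSCs. The 10 most abundant genes took 14.2% and 14.6% of the counts in neoSFs and 3.81% to 4.34% in monoiPSCs. Fibroblast markers summed to an NRC of 1719920 and 1826400 in the neoSFs and of 6913 to 12221 in the monoiPSCs, and all 14 measured markers were lower in monoiPSCs. Pluripotency markers summed to 187 and 321 in neoSFs and to 15662 to 20353 in monoiPSCs, and all 11 tested were higher. Of these 11, 6 were at or below the floor of 3 counts in both neoSFs and were tested only because of their monoiPSC level. That way of entry favours a higher level in monoiPSCs.

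Of the 10 factors, 9 reached an NRC of at least 20 in every library of a group and could be tested. Differentially expressed (DE) genes were those with an adjusted p (Benjamini-Hochberg) no higher than 0.05 in edgeR's quasi-likelihood test and a fold change of 2 or more. By this rule 7 factors were lower in monoiPSCs, ATF3 was higher, and JUND passed the p-value but not the fold change. Of all 13072 tested genes, 45.9% were DE, 21.6% lower and 24.3% higher, and 62.2% passed the p-value alone. In bulk RNA, fewer cells that transcribe a gene and less RNA per cell cannot be told apart.

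The genes of the FOS family, whose proteins bind DNA only with a JUN partner, had the lowest log2 fold changes of the 9 tested factors. FOS itself (gene number 100018285, chromosome 1 of MonDom5) had an NRC of 18906 in FD2M1 and 23335 in LSD1 neoSFs, against 1088 and 530.0 in the FD2M1 and LSD1 monoiPSCs at passage 15 and 907 and 992 at passage 25. Every monoiPSC library lay below both neoSF libraries. The means were 21120.5 ± 3132 (SD, n = 2) and 879 ± 244 (SD, n = 4), and the fitted log2 fold change was -4.49 (SE 0.29, edgeR adjusted p 3.01e-05), a level 22.5-fold lower.

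FOSB (100010781, chromosome 4), the closest paralog of FOS and likewise induced within minutes, had the lowest log2 fold change of the 9 tested factors. Its NRC was 1829 and 4028 in the FD2M1 and LSD1 neoSFs, 11.6 and 7.36 in monoiPSCs at passage 15, and 34.8 and 48.8 at passage 25. The monoiPSC values rest on 14 to 94.7 estimated counts per library, all above the floor of 3 counts. Both passage 15 libraries were under an NRC of 20, so FOSB was tested only because of its neoSF level. That way of entry favours a lower level in monoiPSCs. The log2 fold change was -6.74 (SE 0.70, edgeR adjusted p 0.000196), or 107-fold lower. Its spread was wide in both groups, 2928 ± 1555 (SD, n = 2) and 25.6 ± 19.6 (SD, n = 4), yet the groups did not come near each other. Without the LSD1 neoSF library the log2 fold change was -6.05, still DE.

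FOSL1 and FOSL2 encode FRA-1 and FRA-2, the FOS relatives that lack a strong transactivation domain and follow the first wave of induction. FOSL1 (100616977, chromosome 8) had an NRC of 1272 and 770.0 in the FD2M1 and LSD1 neoSFs, and of 44.5, 34.4, 52.0 and 61.8 in monoiPSCs of FD2M1 P15, LSD1 P15, FD2M1 P25 and LSD1 P25. The neoSF of LSD1 was the lower of the pair, which was the reverse of FOS, FOSB and FOSL2. Its log2 fold change was -4.31 (SE 0.31, edgeR adjusted p 4.09e-05), 19.8-fold lower.

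FOSL2 (100026446, chromosome 1) was measured at an NRC of 11136 and 12562 in neoSFs and of 273, 284, 318 and 537 in monoiPSCs, in the same order of libraries. The highest monoiPSC library, LSD1 P25, was still far under both neoSFs. With a log2 fold change of -4.97 (SE 0.29, edgeR adjusted p 2.38e-05), 31.4-fold lower, FOSL2 had the smallest adjusted p of the 9 tested factors. A non-coding gene overlaps FOSL2 in the RefSeq annotation, and it had 0 counts in all 6 libraries.

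**Figure D1:**
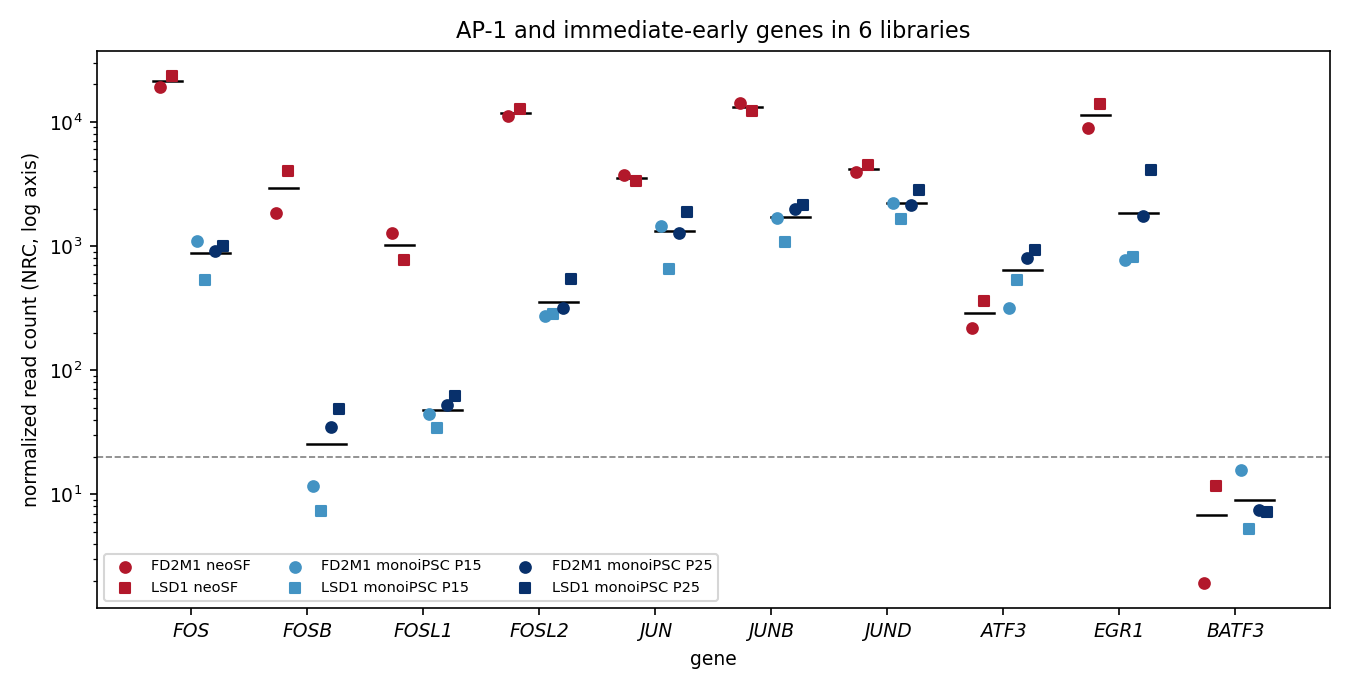
NRC (log scale) of the 10 factors in each of the 6 libraries. Each point is 1 library, coloured by cell type and passage, with the shape giving the strain. All FOS-family genes, JUN, JUNB, JUND and EGR1 have both neoSF points above the 4 monoiPSC points, while the points of ATF3 and BATF3 overlap.

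The genes of the JUN subunits, which every FOS protein needs as a partner, differed less between the cell types than those of the FOS family. JUNB had the largest difference of the 3, at 7.19-fold, and JUN and JUND had smaller ones. JUN (100018774, chromosome 2), the founding member and a target of JUN N-terminal kinase, had an NRC of 3715 and 3318 in FD2M1 and LSD1 neoSFs and of 1445, 654, 1266 and 1876 in monoiPSCs of FD2M1 P15, LSD1 P15, FD2M1 P25 and LSD1 P25. The groups did not overlap. The difference was a log2 fold change of -1.33 (SE 0.35, edgeR adjusted p 0.0124), 2.51-fold lower. JUN was no longer DE when libraries were scaled by their totals (-0.82, adjusted p 0.0621) or without the FD2M1 neoSF library (-1.25, adjusted p 0.0528). Over its 13 alternatives the adjusted p ran from 0.000828 to 0.0621.

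JUNB (100009986, chromosome 3), a weaker activator that can hold back JUN, had an NRC of 14083 and 12253 in neoSFs and 1674, 1080, 1982 and 2119 in the monoiPSC libraries. The groups did not overlap, at 13168 ± 1294 (SD, n = 2) and 1714 ± 462 (SD, n = 4). The log2 fold change was -2.85 (SE 0.26, edgeR adjusted p 0.000112), 7.19-fold lower.

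JUND (103092114, chromosome 3), the JUN protein that is present in resting cells and depends least on stimulation, had an NRC of 3906 and 4466 in neoSFs and of 2231, 1646, 2148 and 2833 in monoiPSCs. All 4 monoiPSC libraries were lower than both neoSFs, but by a small step, with a log2 fold change of -0.82 (SE 0.21, edgeR adjusted p 0.0115) or 1.77-fold, below the fold change asked of a DE gene. Scaling by library totals left -0.31 (adjusted p 0.212), and leaving out the LSD1 neoSF library gave -0.72 (adjusted p 0.0678). Over its 13 alternatives the adjusted p ran from 0.00148 to 0.212, and the log2 fold change from -0.31 to -0.98.

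ATF3, a stress-induced bZIP protein that represses transcription as a homodimer and activates it with JUN, was the 1 factor called higher in monoiPSCs. ATF3 (100016599, chromosome 2) had an NRC of 218 and 360 in neoSFs and of 314, 533, 807 and 931 in monoiPSCs of FD2M1 P15, LSD1 P15, FD2M1 P25 and LSD1 P25. FD2M1 P15 was lower than the LSD1 neoSF, so the groups overlapped, although each monoiPSC library exceeded the neoSF of its own strain. The log2 fold change of 1.25 (SE 0.46, edgeR adjusted p 0.0474), 2.38-fold higher, lay close to the threshold. The call was lost with RLE scaling (1.21, adjusted p 0.0559), with limma (1.09, adjusted p 0.0918) and without either neoSF library or without LSD1 P15, FD2M1 P25 or LSD1 P25 (0.93 to 1.66, adjusted p 0.0608 to 0.215). Over its 13 alternatives the adjusted p ranged from 0.0107 to 0.215, and the sign was positive in each.

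BATF3 (100016641, chromosome 2), known for its part in dendritic cell development and lying next to ATF3 in the genome, was barely detected. Its NRC was 1.95 and 11.6 in the neoSFs and 15.7, 5.26, 7.53 and 7.21 in the monoiPSCs, from 1 to 28 estimated counts. The groups overlapped fully, BATF3 was not tested, and no direction can be given at this depth.

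EGR1 (100618969, chromosome 1), the zinc finger factor, had an NRC of 8938 and 13842 in FD2M1 and LSD1 neoSFs. In monoiPSCs it was 768 and 818 at passage 15 and 1759 and 4053 at passage 25, a 5.28-fold range. The groups did not overlap. Its log2 fold change was -2.53 (SE 0.64, edgeR adjusted p 0.0106), 5.78-fold lower. Without LSD1 P25 the log2 fold change was -3.27 and DE, while without the LSD1 neoSF library it was -2.17 with an adjusted p of 0.0523 and not DE. The adjusted p of EGR1 over its 13 alternatives ran from 7.39e-05 to 0.0523.

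**Figure D2:**
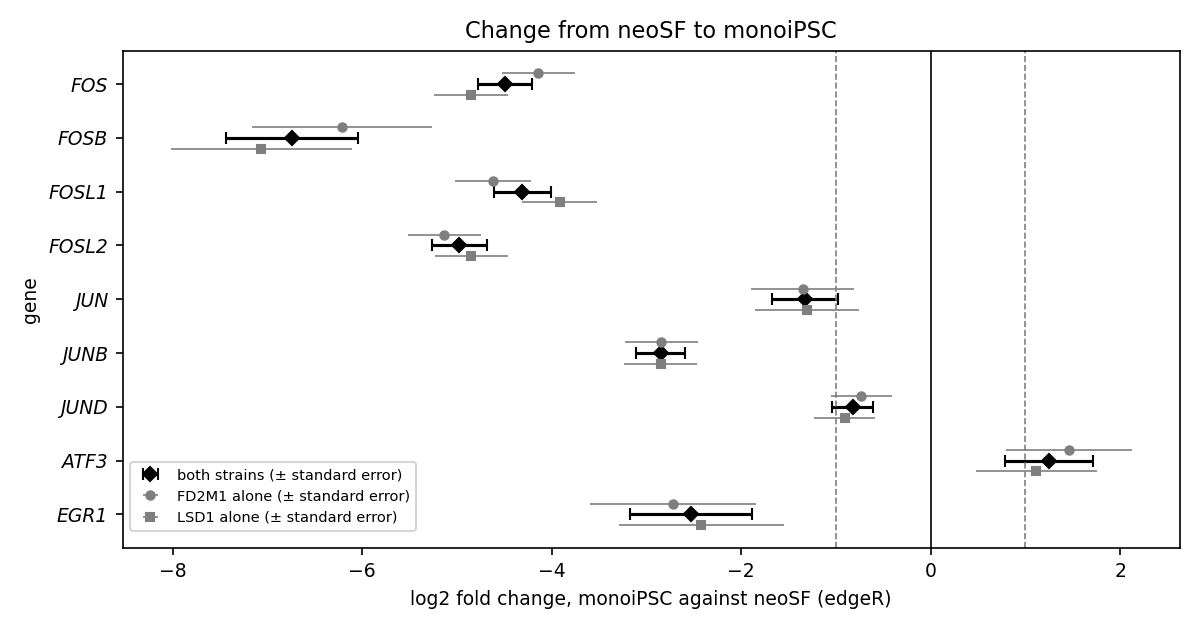
Log2 fold change of the 9 tested factors, monoiPSC against neoSF, from edgeR with bars of 1 SE, with the values of each strain from the joint fit beside the pooled value. The FOS-family genes lie between -4.31 and -6.74, the JUN-family genes between -0.82 and -2.85, and ATF3 is the 1 gene to the right of 0.

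The median log2 fold change of the 9 tested factors was -2.85, and that of all 13072 genes was 0.08. The factors were chosen with earlier results of these data known, so this comparison and their ranks describe them and test nothing. FOSB, tested only because of its neoSF level, ranked lowest among them, with 1.22% of tested genes lower. FOSL2 followed with 2.74%, FOS with 3.27% and FOSL1 with 3.56%. JUN and JUND lay further in, with 17.9% and 25.8% of genes lower, and JUNB and EGR1 lay between with 7.09% and 8.36%. For 8 of the 10 factors the neoSF and monoiPSC libraries did not overlap, all with neoSFs higher, a pattern that 37.1% of tested genes showed (73.2% did not overlap in either direction). The exact two-sided permutation test over the 15 splits of 6 libraries gave these 8 a p of 0.0667, which is the smallest it can give. It gave 0.2 for ATF3 and 0.467 for BATF3.

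The neoSF library of each strain was then set against its own line, in a joint fit with the interaction of cell type and strain. Each strain has 1 neoSF library, so the fit takes its spread from the replicated monoiPSC libraries and assumes that neoSFs vary likewise. In FD2M1 the log2 fold changes were -4.14 for FOS, -6.21 for FOSB, -4.62 for FOSL1 and -5.13 for FOSL2. In LSD1 they were -4.85, -7.07, -3.91 and -4.85 in the same order, so the FOS family was lower in both strains. The JUN family followed, at -1.35 and -1.30 for JUN, -2.84 and -2.85 for JUNB and -0.73 and -0.91 for JUND in FD2M1 and LSD1. ATF3 was at 1.46 and 1.11 and EGR1 at -2.72 and -2.42. The difference between strains was tested as an interaction in edgeR and was called for none of the 9 factors and for 11 of all genes (0.0841%). For FOS it was -0.71 (SE 0.54, adjusted p 0.818), for FOSL1 0.70 (SE 0.57, adjusted p 0.838) and for FOSB -0.85 (SE 1.30, adjusted p 0.94). With 1 neoSF library per strain these standard errors are too wide to show that the strains were alike. Within a strain, 6 of the 9 were DE in FD2M1 (43.0% of all tested genes) and 5 in LSD1 (43.0%). JUN, JUND and ATF3 were not DE in either strain by this fit, and EGR1 was not in LSD1 (adjusted p 0.062).

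RNA counts were also read relative to JUN within libraries, as the count of each factor divided by the count of JUN. No scaling between libraries can change such a ratio. Transcript lengths were not used, so the change of a ratio between groups can be read, but not which RNA was the more abundant. These ratios were added after the data had been seen. FOS counts were 5.09 and 7.03 times those of JUN in FD2M1 and LSD1 neoSFs and 0.753, 0.81, 0.717 and 0.529 times in monoiPSCs of FD2M1 P15, LSD1 P15, FD2M1 P25 and LSD1 P25. The FOS to JUN ratio was thus 8.63-fold lower in monoiPSCs, and the 4 monoiPSC values stayed within a narrow range. The ratio to JUN was 48.4-fold lower for FOSB, 12.2-fold for FOSL2, 7.33-fold for FOSL1 and 2.76-fold for JUNB.

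JUND moved the other way on this scale. Its counts were 1.05 and 1.35 times those of JUN in neoSFs and 1.54, 2.51, 1.70 and 1.51 times in monoiPSCs, a ratio 1.49-fold higher. ATF3 went from 0.0587 and 0.109 in neoSFs to 0.217, 0.814, 0.637 and 0.496 in monoiPSCs, 6.09-fold higher, and here its groups did not overlap. EGR1 counts stood at 2.41 and 4.17 times those of JUN in neoSFs and at 0.532, 1.25, 1.39 and 2.16 times in monoiPSCs, 2.67-fold lower. None of the 8 ratios overlapped between the groups. How many of all genes have a ratio to JUN that separates the groups was not computed. For the levels themselves, 73.2% of tested genes did not overlap. JUN itself was lower in monoiPSCs, which raises each ratio to JUN there. The exact two-sided permutation p over 15 splits was 0.133 for JUND and EGR1 and, at its smallest possible value, 0.0667 for the other 6.

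**Figure D3:**
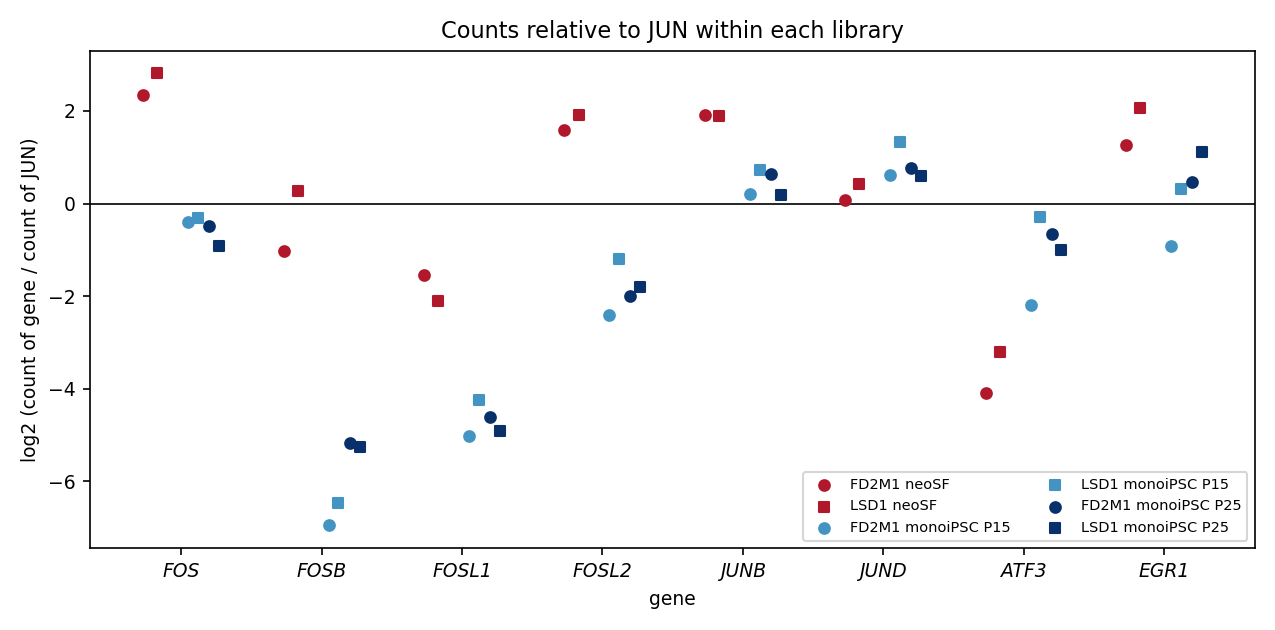
Count of each of 8 factors divided by the count of JUN in the same library (log scale), for 2 neoSF and 4 monoiPSC libraries. FOS, FOSB, FOSL1, FOSL2, JUNB and EGR1 have lower ratios in every monoiPSC library, and JUND and ATF3 have higher ratios.

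Within the monoiPSCs, passage 25 was compared with passage 15 and the LSD1 with the FD2M1 line in a fit with both factors, over the 12252 genes whose NRC was 20 or more in all 4 libraries. This fit included 8 of the factors, since FOSB and BATF3 fell below that level. It has 1 residual degree of freedom, and edgeR called no DE gene by passage (0.0%) or by line (0.0%), with 9.35% and 14.2% of genes at an unadjusted p under 0.05. DESeq2 called 115 genes by passage (0.939%) and 192 by line (1.57%).

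Among the 8 factors in this fit, EGR1 and ATF3 had the highest log2 fold changes by passage. The level of EGR1 at passage 25 was 2.29 times that at passage 15 in the FD2M1 line and 4.95 times in the LSD1 line, a log2 fold change of 1.74 (SE 0.27, edgeR adjusted p 0.165). For ATF3 the levels were 2.57 and 1.75 times as high, a log2 fold change of 1.07 (SE 0.22, edgeR adjusted p 0.271). DESeq2 called both, with adjusted p of 4.24e-07 and 0.0213, and over 4 alternatives the adjusted p reached 0.812 for EGR1 and 0.926 for ATF3. FOSB, which was not tested, was at 2.99 and 6.63 times its passage 15 level in the FD2M1 and LSD1 lines. JUNB had a log2 fold change of 0.59 (SE 0.20, edgeR adjusted p 0.496). FOSL1, FOSL2, JUN, JUND and FOS lay between 0.30 and 0.65, with SEs of 0.22 to 0.39. edgeR called none of these 5, and DESeq2 gave no adjusted p for FOSL1 and called none of the other 4.

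Over the 8 factors, LSD1 P25 was most often the highest monoiPSC library and LSD1 P15 most often the lowest. The lead of LSD1 P25 could be small, as for JUNB at an NRC of 2119 against 1982 in FD2M1 P25. All 8 factors were higher at passage 25 than at passage 15 in the LSD1 line, as were 50.3% of all genes, and 5 of 8 were in the FD2M1 line, as were 49.2% of genes. The same 5 were higher in both lines, a pattern of 29.0% of genes, and they were FOSL1, FOSL2, JUNB, ATF3 and EGR1. LSD1 P25 was the highest monoiPSC library for 7 of 8 factors (31.3% of all genes), FOS being highest in FD2M1 P15 (29.0% of genes). LSD1 P15 was the lowest library for 5 of 8 (23.0% of genes) and FD2M1 P15 for FOSL2, ATF3 and EGR1 (28.6% of genes). JUN shows the pattern most plainly, with a passage 25 level of 2.87 times passage 15 in LSD1 and 0.876 times in FD2M1. The log2 values of EGR1 spread more over the 4 libraries than those of 98.8% of genes, those of ATF3 more than 93.7% and those of JUN more than 91.9%. The factors share regulators and libraries and are not replicates of a condition, so these counts describe the 4 libraries.

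**Figure D4:**
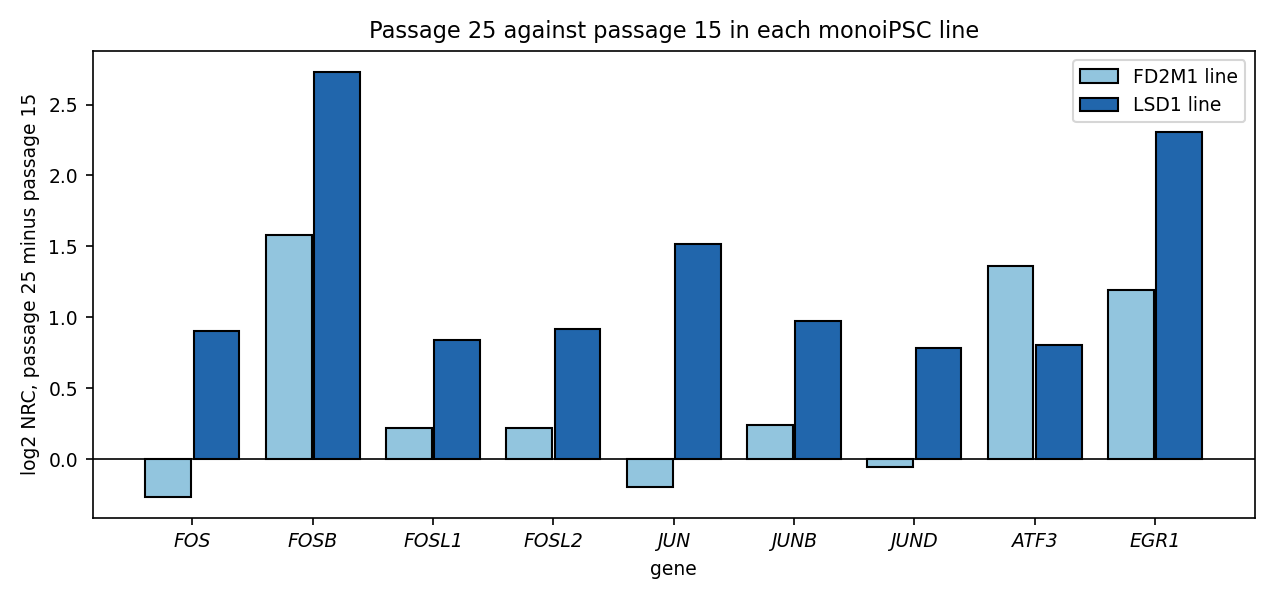
Difference in deposited log2 value between passage 25 and passage 15 for each factor except BATF3, in the FD2M1 and in the LSD1 line. Each bar is 1 library minus another, with no error. EGR1, ATF3, FOSB, FOSL1, FOSL2 and JUNB are above 0 in both lines. JUN, FOS and JUND are above 0 in LSD1 and slightly below 0 in FD2M1.

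Markers of other cell types also differed among these 4 libraries. Skeletal muscle markers, of which 4 of 7 had a row, summed to an NRC of 2202 in FD2M1 P15, 5006 in LSD1 P15, 1341 in FD2M1 P25 and 10354 in LSD1 P25, against 334 and 1180 in neoSFs. In LSD1 P25 they were led by the muscle regulator MYOG at 5549 and the muscle filament gene DES at 4213. Melanocyte markers, 5 of 7 with a row, summed to 5962, 15571, 4604 and 8101 in the same order, most of it DCT, and pluripotency markers to 17204, 19528, 20353 and 15662. The muscle sum was thus highest where 7 of the factors were highest, and its part in their levels was not tested. In the FD2M1 line the muscle sum was lower at passage 25 than at passage 15. In that line EGR1, ATF3 and FOSB were at 2.29, 2.57 and 2.99 times their passage 15 levels. FOSL1, FOSL2 and JUNB were at 1.17, 1.17 and 1.18 times, and FOS, JUN and JUND at 0.834, 0.876 and 0.963 times. Each of these ratios sets 1 library against 1, and their relation to the muscle sum was not tested. Keratinocyte markers were near 0 in monoiPSCs, with a sum of 0 to 6.73.

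Genes that act with, upstream or downstream of the 10 factors were taken from lists, also chosen with earlier results of these data known. They were read against the 21.6% of tested genes that were DE lower and the 24.3% that were DE higher. Among partners and other bZIP factors, 24 of 31 were tested, 9 were DE lower, 1 higher and 14 not DE (median log2 fold change -0.58). CEBPD, a bZIP factor of acute responses, went from 9397 ± 1779 (SD, n = 2) NRC among neoSFs to 374 ± 101 (SD, n = 4) among monoiPSCs, with a fitted log2 difference of -4.55 (SE 0.27, edgeR adjusted p 2.38e-05). CREB3, anchored in the endoplasmic reticulum, was at -2.70, and CREM, which responds to cAMP, was the 1 gene of this list called higher, at 1.05.

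Of 38 other immediate-early genes, 30 were tested, and 14 were DE lower, 4 higher and 12 not DE (median -0.92). CCN2, listed under its older symbol CTGF and encoding a secreted matrix protein, had an NRC of 220976 and 133667 in neoSFs and of 637 to 2453 in monoiPSCs, a log2 fold change of -6.82 (SE 0.61, edgeR adjusted p 0.000102). DUSP1, the phosphatase that switches off p38 and JNK, was at -5.16 (SE 0.29). Against these, PLK3 and GADD45A, both stress-response genes, were DE higher at 2.43 (SE 0.29) and 1.82 (SE 0.44).

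The upstream MAP kinase and SRF list had 36 of 39 genes tested, with 13 DE lower, 7 higher and 16 not DE (median -0.25). The receptor EGFR, at -3.83 (SE 0.36), and the kinase MAP3K8, at -5.13 (SE 0.69), were lower in monoiPSCs. MAP3K8 rests there on 4 to 38 estimated counts per library, under an NRC of 20 in each. It was thus tested only because of its neoSF level, which favours a lower level in monoiPSCs. The kinases RPS6KA1, at 4.02 (SE 0.29), and MAPK12, at 3.70 (SE 0.52), were higher. In the FD2M1 and LSD1 neoSFs RPS6KA1 had 12.5 and 13.8 estimated counts and MAPK12 had 6.43 and 26.9. For MAPK12 the FD2M1 neoSF was under an NRC of 20, so it was tested only because of its monoiPSC level. That favours a higher level in monoiPSCs. The phosphatases that remove MAP kinase phosphates were divided, with 3 DE lower, 3 higher and 2 not DE among 8 tested of 10 (median 0.08). DUSP1 and DUSP10 (-2.19, SE 0.26) were lower. DUSP6, a feedback phosphatase of ERK, had an NRC of 1744 and 2049 in neoSFs and of 7713 to 11254 in monoiPSCs. Its log2 fold change was 2.44 (SE 0.21, edgeR adjusted p 9.68e-05). DUSP4, of the same class, was at 4.77 (SE 0.42), from 18.7 and 9.83 estimated counts in the FD2M1 and LSD1 neoSFs. Its LSD1 neoSF was under an NRC of 20, so DUSP4 too was tested only because of its monoiPSC level.

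Coactivators, repressors and turnover factors of AP-1 showed few calls, with 1 DE lower, 2 higher and 15 not DE among 18 tested of 19 (median 0.29). NCOA1, a nuclear receptor coactivator, was lower at -1.91 (SE 0.18), and the acetyltransferase KAT5 and the SRC-inhibiting kinase CSK were higher at 1.17 (SE 0.17) and 1.49 (SE 0.15).

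Textbook target genes of AP-1 had a median of -3.16, the lowest of the 6 pathway lists, beside -6.77 for the 14 fibroblast markers, with 19 DE lower, 3 higher and 4 not DE among 26 tested of 36. SPP1, which encodes osteopontin, had an NRC of 27690 and 3337 in the FD2M1 and LSD1 neoSFs and of at most 25.8 in monoiPSCs, a log2 fold change of -9.89 (SE 0.94, edgeR adjusted p 0.000137). CCNA2, a cyclin of S phase and mitosis, was DE higher at 4.00 (SE 0.33), and the collagen receptor ITGA2 was higher at 3.94 (SE 0.47). Many genes of this list are matrix or protease genes of fibroblasts as such, all 14 measured fibroblast markers were DE lower in the same libraries, and how much of the list follows AP-1 was not tested.

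**Figure D5:**
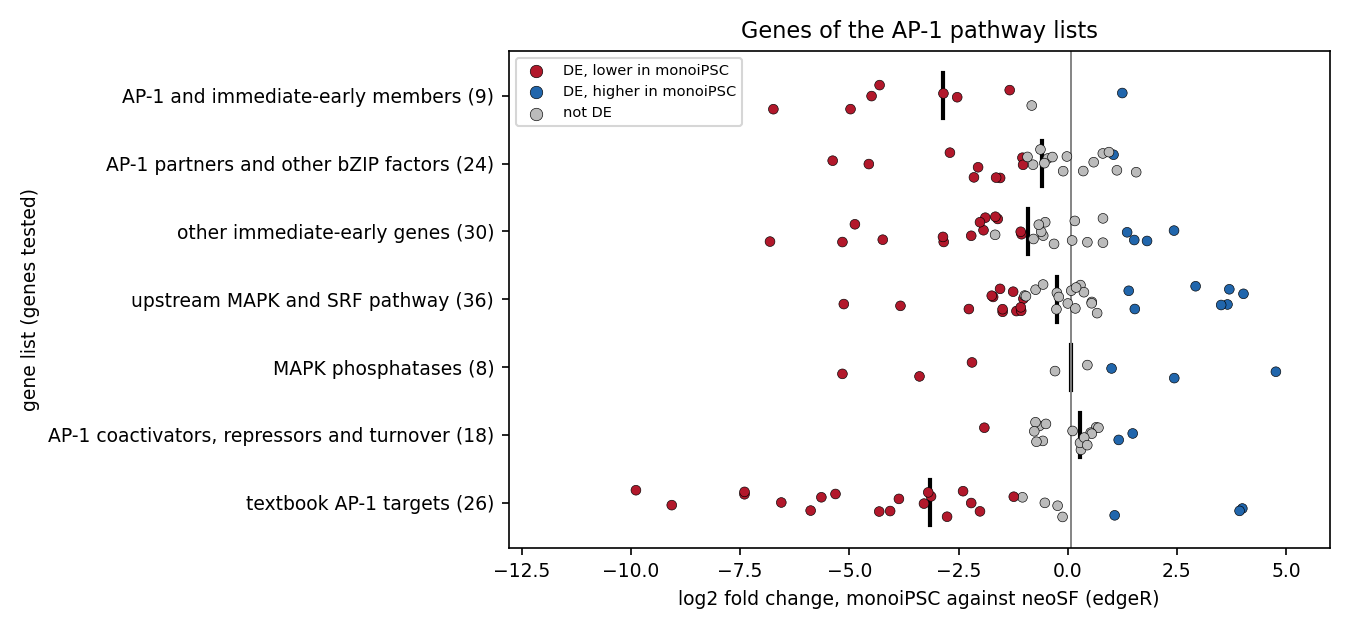
Log2 fold change of every tested gene in each list, monoiPSC against neoSF, with DE genes coloured, the median of a list as a vertical bar and the median of all tested genes (0.08) as a line. The medians are -2.85 for the 10 factors (9 tested) and -3.16 for textbook AP-1 targets, and lie between -0.92 and 0.29 for the other lists.

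The genes whose pattern over the 6 libraries was most like that of FOS were sought among 11382 genes with a symbol, by the Euclidean distance of log2 values after subtracting each gene's mean. THY1, a surface glycoprotein of fibroblasts, was nearest at 0.24, and PCDH7, a protocadherin, was also close at 0.65. FOSL1 was the nearest of the factors at 0.94, at rank 28, and FOSL2 came at 1.09 and rank 54. For JUN the nearest genes were PLEKHA3 at 0.47, PFKP at 0.56 and PRKACB at 0.58, and JUND was the nearest factor at 0.93 and rank 78. FOS and JUN were 3.64 apart, which put JUN at rank 1597 from FOS. The log2 values were not scaled, so the size of the log2 fold change weighs heavily in this distance. THY1 and PCDH7 had log2 fold changes of -4.50 and -4.69, beside -4.49 for FOS. PLEKHA3, PFKP and PRKACB were at -1.33, -1.19 and -1.34, beside -1.33 for JUN.

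The genes on either side of each factor were listed from the gene order of the mMonDom1.pri assembly, an addition made after the data had been seen. ATF3 and BATF3 are neighbours, and 18 other genes flank the factors. Of these, 12 were tested, 1 was DE lower and 5 were DE higher (21.6% and 24.3% of all tested genes), and their median was 0.38 on the log2 scale. NENF, beside ATF3, was the 1 lower gene at -1.31 (SE 0.26). TMED10, beside FOS, was at -0.87, RTN2 and ERCC1, on the sides of FOSB, at -0.16 and -0.42, and ETF1, beside EGR1, at 0.07, and none of these was DE. CCDC85B, beside FOSL1, was DE higher at 1.47 (SE 0.21), as were FGGY, beside JUN, at 2.25 (SE 0.36), PRDX2, beside JUNB, at 2.90 (SE 0.70), and NSL1, beside BATF3, at 1.04 (SE 0.23). The fifth, REEP2 beside EGR1, had 0 counts in both neoSFs and an NRC of 210 to 558 in monoiPSCs. REEP2 was thus tested only because of its monoiPSC level.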

How the data were processed

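The authors aligned reads to MonDom5 with StrandNGS, filtered them on base quality, mapping quality and non-primary multiple hits, and counted what was left on RefSeq genes. Whether strand was used in counting is not given in the sources used here. The deposited raw table holds estimated counts, since 85.5% of positive values were not whole (tolerance 1e-04), and these were rounded for tests. The second deposited table holds log2 values after the authors' DESeq normalization. Genes that reached an NRC of 20 in every neoSF or every monoiPSC library were tested with edgeR 4.0.16 (glmQLFit and glmQLFTest, TMM scaling, R 4.3.3), without a block. DESeq2 1.42.0, limma 3.58.1 on the log2 values, RLE and library-total scaling, no filter, an NRC of at least 100, a strain block and leaving out each library were alternatives. Adjusted p are Benjamini-Hochberg over all tested genes in edgeR and limma. In DESeq2 they are over the genes left by its own default filter. The standard error is the log2 fold change divided by the square root of F. The code was tested on simulated counts.

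The members and lists were chosen with earlier results of these data known. Besides the 10 factors, the text names up to 2 genes from each end of the log2 fold changes of each pathway list, taken from DE genes that differed in 1 direction in each monoiPSC library from the neoSF of its strain and whose higher group averaged an NRC of 100 or more. A few genes that this rule or the likeness rule selects are not reported here. MYOG, DES and DCT and the neighbouring genes were named after their values were seen. Strain pairs the libraries, because each line was reprogrammed from neoSFs of its strain. Over 13072 genes the LSD1 minus FD2M1 differences of neoSFs correlated with those of monoiPSCs at 0.07 (P15) and -0.006 (P25). Chromosomes are those in the deposited identifiers. The RefSeq table of mMonDom1.pri was used for gene order only, and no sequence was used here.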

Additional observations from a re-analysis of the deposited data

How the results depend on the processing

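The 9 tested factors kept their sign of the difference between monoiPSCs and neoSFs under all 13 alternatives. Of the 117 values so obtained, 107 stayed on their side of the threshold and 10 lost the call, for JUN, EGR1 and ATF3 as given above. FOS, FOSB, FOSL1, FOSL2 and JUNB were DE under each alternative. The number of factors DE and lower was 6 to 7 when 1 library was left out and 6 with library-total scaling, and the number DE and higher was 1, but 0 with RLE scaling, 0 with limma and 0 to 1 when 1 library was left out. Where a neoSF library is left out, the other is assumed to vary like the monoiPSC libraries. Library-total scaling moved the median of all genes by 0.52, from 0.08 to 0.61, and gave 1931 DE lower and 4786 DE higher in place of 2824 and 3176. Relative to that median, FOS was at -4.58 (-4.57 with TMM), JUN at -1.42 (-1.41) and ATF3 at 1.16 (1.17). Leaving out the filter moved the median by 0.14. With strain as a replicate block, 6012 genes were DE, 2826 lower and 3186 higher, with 7 factors lower and 1 higher, and the block changed no call of a factor. Passage gave 115 DE genes and line 192 with DESeq2, against 0 in edgeR, and 0 in edgeR without the block too. The interaction gave 304 with DESeq2, 0 with limma and 11 in edgeR. Values near 0 reversed, namely JUND between lines without the block (0.032, from -0.02), the JUN interaction with limma (-0.12, from 0.05) and the JUNB interaction with DESeq2 (0.017, from -0.01). In each case where a call or count changed, the cause was not tested. Leaving out a library changes both the number of libraries and which of them are compared. The comparison of levels between genes per length was not run, because no transcript lengths were used. BATF3 in all libraries and FOSB in monoiPSCs are limited by depth.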
